A study of Mus musculus with 10 samples.

Results

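The tuft cell markers Pou2f3, Gfi1b, Trpm5, Avil, Dclk1, Alox5ap and Il25 were followed by their UMI counts (unique molecular identifiers, 1 for each captured transcript molecule) in every library and cell class. They were chosen by name as markers of the tuft cell, and they are 7 of the 31053 genes counted. The data were 10 droplet-based 3′ single-cell libraries from mouse, of which 8 held organoids and 2 held colonic crypts without culture. Organoids are epithelial structures grown in a gel, here from crypts of the proximal small intestine. ENR-organoids (3 libraries) grew with EGF at 50 ng/mL, Noggin at 100 ng/mL and R-Spondin 1 at 500 ng/mL. Hyper-organoids (3 libraries) grew with 8 components, which were VPA (valproic acid, an inhibitor of histone deacetylases) at 500 µM, EPZ6438 (which blocks the methyltransferase EZH2) at 2 µM, LDN193189 at 0.2 µM, GSK-3 Inhibitor XV at 0.1 µM, Pexmetinib at 1 µM, EGF at 50 ng/mL, FGF2 at 20 ng/mL and R-Spondin 1 conditioned medium at 10%. The -VE-organoids (2 libraries) had the Hyper medium without VPA and EPZ6438. All organoids shared the same basal medium with N2, B27 and N-acetylcysteine. The methods recommend knockout serum replacement for Hyper-organoids after passaging, and whether these libraries had it was not given. Replicates 1, 2 and 3 are the libraries whose codes in the annotation begin with 2, 6 or C, here called culture series 2, 6 and C. That libraries of a series share a culture is inferred from these codes and not stated in the labels. In series 2 and 6 the -VE- and Hyper-organoids were started from ENR-organoids, and in series C the ENR- and Hyper-organoids were started from primary crypts. ENR-organoids were at passage 2, 7 and 3, -VE-organoids at passage 1 and 6, and Hyper-organoids at passage 1, 6 and 3. Of the 2 colonic libraries, 1 held crypts of normal mice and the other those of mice whose drinking water held DSS (dextran sulfate sodium, which injures the colonic epithelium). The mouse line of each library was not given in the sources used here, and neither was whether libraries of a group came from separate animals, so p-values measure the spread between libraries.

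Tuft cells are rare chemosensory cells of the intestinal epithelium that carry a brush of thick microvilli. They sense luminal signals through a taste-type cascade that ends in the cation channel Trpm5, and they answer helminths and protists with Il25 and cysteinyl leukotrienes, which act on innate lymphoid cells of the lamina propria. The transcription factor Pou2f3 is needed for the lineage to form.

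Among the regulators, Pou2f3 is a POU-domain transcription factor at chr9:43123939-43210369 on the minus strand (GRCm38, GENCODE vM21), and Gfi1b is a zinc-finger repressor at chr2:28609450-28621982 on the minus strand. Trpm5, at chr7:143069153-143094642 on the minus strand, encodes the channel of the taste-type cascade. The structural and kinase members were Avil, which encodes the actin-bundling protein advillin, at chr10:127000709-127020994 on the plus strand, and Dclk1, which encodes a doublecortin-like kinase, at chr3:55242364-55539068 on the plus strand. The effectors were Alox5ap, whose protein presents arachidonic acid to 5-lipoxygenase in leukotriene synthesis, at chr5:149264767-149288153 on the plus strand, and the cytokine gene Il25 at chr14:54932695-54935837 on the plus strand. Trpm5, Avil, Dclk1 and Alox5ap each overlap at least 1 gene on the other strand, and Tssc4 and Tsfm are the partners of Trpm5 and Avil. Dclk1 also overlaps Gm25132, Gm19817, Gm42607 and Gm42608 on its own strand. Cell Ranger, which the authors used, is made to count reads in the sense of a gene, and how far reads of such partners entered the counts was not tested.

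Because Pou2f3 belongs to the family of factors that bind the octamer ATGCAAAT, the 250 bases before the start of the members were searched for it. RefSeq promoter entries (GRCm38.p6) were matched for 4 of the 7 members, Gfi1b, Dclk1 (2 starts), Trpm5 and Avil, and Pou2f3, Il25 and Alox5ap are named only. The windows of Avil (chr10:127000459-127000708, plus strand) and Trpm5 (chr7:143094643-143094892, minus strand) are shown because these genes shared their cells below while Avil passed the test and Trpm5 did not. The difference between these 2 genes was not tested, and neither was any part of the octamer in their levels. Capitals mark ATGCAAA, the first 7 letters of the octamer, on either strand.
Avil: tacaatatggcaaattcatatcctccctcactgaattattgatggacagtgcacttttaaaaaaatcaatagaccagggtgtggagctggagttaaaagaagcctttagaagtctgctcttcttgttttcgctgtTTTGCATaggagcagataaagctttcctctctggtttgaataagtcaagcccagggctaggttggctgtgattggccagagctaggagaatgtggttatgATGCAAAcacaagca
Trpm5: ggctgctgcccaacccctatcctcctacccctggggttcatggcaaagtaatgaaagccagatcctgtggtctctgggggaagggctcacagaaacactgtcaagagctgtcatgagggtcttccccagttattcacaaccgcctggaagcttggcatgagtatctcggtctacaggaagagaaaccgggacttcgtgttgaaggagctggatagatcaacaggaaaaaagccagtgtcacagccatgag
Avil held ATGCAAA at 2 places, 15 bases before the start on the plus strand and 115 bases before it on the minus strand, and the other 4 windows held none. ATGCAAA occurred in 4.12% of the 32851 promoters of the same length, and the full ATGCAAAT, which contains it, in 1.60% of them and in none of the members' windows. In all, 11 motifs were searched on both strands. Of the others, CANNTG occurred in 66.2% of promoters and in the windows of Gfi1b and Dclk1, AAATCA in 12.4% and in those of Gfi1b, Dclk1 and Avil, and AGATAA in 9.99% and in that of Avil. Of the remaining motifs, TATAAA occurred in 12.4% of promoters and GGAAGT in 19.7%. Those that are forms of CANNTG were CAGCTG, in 13.0%, CATATG, in 3.46%, and CACGTG, in 6.02%. TAAATCAC, which contains AAATCA, occurred in 0.514%. The members' windows held none of these.

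The authors kept 22139 organoid cells, 1983 to 4293 per library, with median depths of 38174 to 50652 UMIs per cell. The colonic libraries were shallower, with 1132 normal and 1933 DSS cells and medians of 18375 and 16051 UMIs. Kept cells gave 19906845 to 170019527 UMIs per library. Pairs of libraries shared 0 to 5 cell barcodes, at most 0.207% of the smaller library. No library was left out.

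The members were sparse in all organoids. Over the 8 organoid libraries there were 988 UMIs of Pou2f3, 19 of Gfi1b, 322 of Trpm5, 414 of Avil, 176 of Dclk1, 240 of Alox5ap and 7 of Il25. Levels below are counts-per-million (CPM) of the summed kept cells, adjusted by TMM factors, unless stated otherwise. A gene was called where its Benjamini-Hochberg adjusted p over 16037 genes was under 0.05 and its fold at least 2 in edgeR's quasi-likelihood test. Of the 7 members, 5 passed the filter on low counts, and Gfi1b and Il25 did not.

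Pou2f3 was higher in Hyper-organoids than in the other groups, with no overlap between libraries. The ENR-organoids stood at 0.559, 0.735 and 0.609 CPM, the -VE-organoids at 0.838 and 0.688, and the Hyper-organoids at 1.90, 1.19 and 1.32. The lowest Hyper library thus lay above the highest of the other 5, while ENR- and -VE-organoids overlapped. The Hyper mean was 1.47 ± 0.379 CPM (SD, n = 3), against 0.634 ± 0.0906 in ENR-organoids (n = 3) and 0.763 ± 0.106 in -VE-organoids (n = 2). Gfi1b gave 0 to 6 UMIs per library and Il25 0 to 3, too few to order the groups.

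Avil went the other way. The ENR-organoids stood at 0.290, 0.543 and 0.752 CPM, the -VE-organoids at 0.864 and 0.524, and the Hyper-organoids at 0.163, 0.172 and 0.222. All 3 Hyper libraries lay below all 5 others, at a mean of 0.186 ± 0.0315 CPM (SD, n = 3), against 0.528 ± 0.232 in ENR-organoids (n = 3) and 0.694 ± 0.241 in -VE-organoids (n = 2). Trpm5 levels were 0.155, 0.342 and 0.430 CPM with ENR, 0.736 and 0.323 with -VE, and 0.190, 0.272 and 0.232 with Hyper medium. The Hyper libraries lay within the ENR range and below both -VE libraries.

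Dclk1 and Alox5ap spread widely within groups. Dclk1 levels were 0.0932, 0.443 and 0.573 CPM with ENR, 0.257 and 0.0365 with -VE, and 0.00679, 0.0730 and 0.190 with Hyper medium, the last from 1, 11 and 18 UMIs. The groups overlapped, since ENR-organoids 1 lay below the highest Hyper library. Alox5ap levels were 0.0828, 0.484 and 0.454 CPM with ENR, 0.325 and 0.103 with -VE, and 0.170, 0.139 and 0.369 with Hyper medium, with no separation of the groups. ENR-organoids 1 had the lowest ENR level of Pou2f3, Trpm5, Avil, Dclk1 and Alox5ap.

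**Figure D1:**
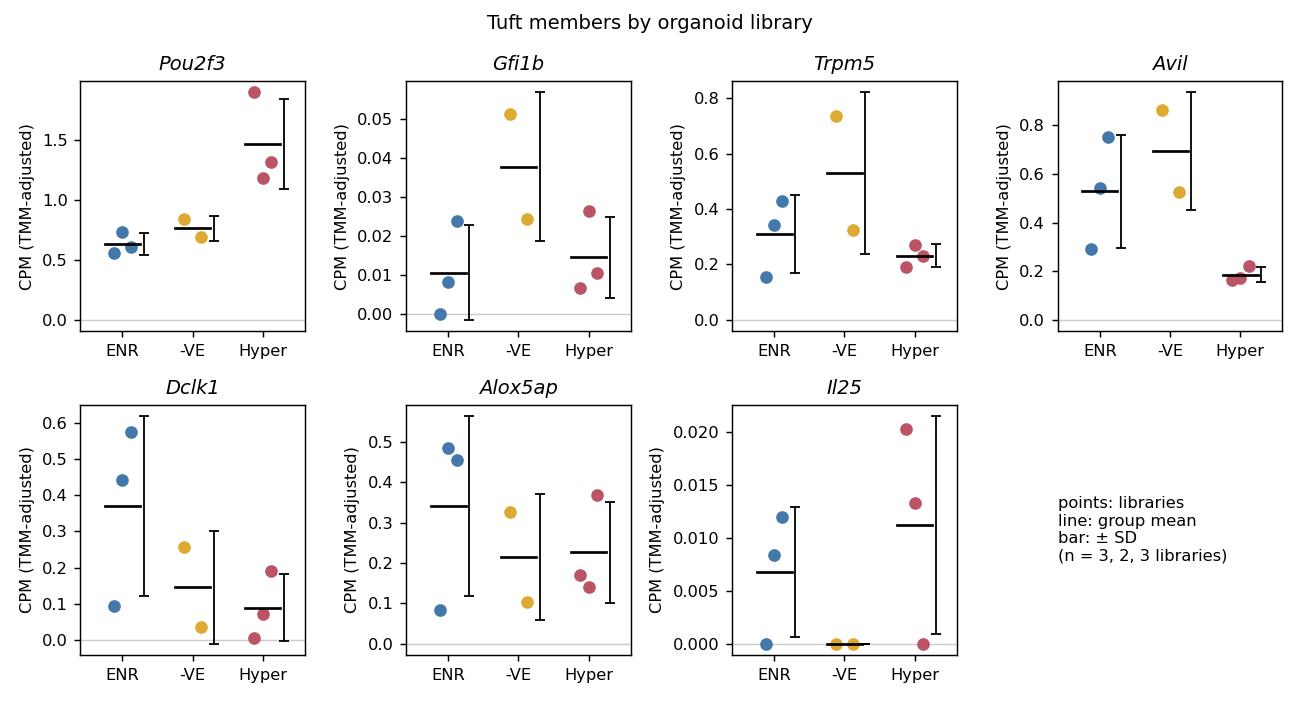
Level of each member in TMM-adjusted CPM (vertical axis, scaled per gene) in the 3 ENR-, 2 -VE- and 3 Hyper-organoid libraries. Points are libraries, horizontal lines group means and bars ± SD; the 3 Hyper libraries lie above all others for Pou2f3 (1.19 to 1.90 CPM) and below all others for Avil (0.163 to 0.222 CPM).

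Hyper- against ENR-organoids asks how the medium of 8 components differs from the conventional one. Pou2f3 rose and Avil fell, and Trpm5, Dclk1 and Alox5ap were not called. Thus 1 of 5 tested members was called higher and 1 lower, where 18.2% of all genes tested were called higher and 4.75% lower (22.9% in either direction). Pou2f3 had a log2 difference of 1.21 (SE 0.24, edgeR adjusted p = 0.00272, higher in 3 of 3 libraries). Avil was lower by a log2 difference of -1.51 (SE 0.39, edgeR adjusted p = 0.0105, lower in 3 of 3 libraries). The log2 differences of the others were -2.14 for Dclk1 (SE 1.03, edgeR adjusted p = 0.109), -0.63 for Alox5ap (SE 0.69) and -0.41 for Trpm5 (SE 0.45). The median over the 5 tested members was -0.63, beside -0.0073 over all genes tested. Libraries of the groups did not overlap for 1 member in each direction, and for 32.7% (higher) and 31.6% (lower) of all genes. Without Hyper-organoids 1, which had the highest Pou2f3 level, the Pou2f3 difference was 0.98 (edgeR adjusted p = 0.00610), just under the fold limit.

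Hyper- against -VE-organoids asks what VPA and EPZ6438 add to the other 6 components. Avil fell by a log2 difference of -1.90 (SE 0.41, edgeR adjusted p = 0.00649, lower in 3 of 3 libraries), and it was the only one of the 5 tested members called, where 18.6% of all genes were called, 16.1% higher and 2.51% lower. Pou2f3 was 0.95 higher (SE 0.26, edgeR adjusted p = 0.0187) and passed on p but not on fold. The Trpm5 difference was -1.18 (SE 0.47, edgeR adjusted p = 0.0715), and those of Dclk1 and Alox5ap were -0.75 (SE 1.17) and 0.072 (SE 0.78). The median of the 5 was -0.75, beside 0.014 over all genes. Libraries did not overlap for Pou2f3 (higher), Avil and Trpm5 (lower), and for 34.2% (higher) and 32.9% (lower) of all genes. Without -VE-organoids 1, the library with the most Avil, the Avil difference was -1.49 (edgeR adjusted p = 0.0505) and was not called; the remaining -VE library was then assumed to vary like the other groups. This comparison shares the Hyper libraries with the one before, so the 2 are not independent.

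The -VE- against ENR-organoids comparison called none of the 5 tested members, where 2.55% of all genes were called, 1.35% higher and 1.2% lower. At an unadjusted p under 0.05 edgeR gave 0 of the 5, against 24% of all genes, and DESeq2 called 0. Log2 differences ran from -1.38 (Dclk1, SE 1.10) to 0.77 (Trpm5, SE 0.47), with a median of 0.26 beside 0.0041 over all genes. All 5 overlapped between the groups, where 23.8% of genes lay apart with -VE higher and 21.9% with -VE lower.

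In summed counts, a change in the number of cells that hold a gene and a change in the RNA per cell cannot be told apart, so the members were followed in the authors' classes. These are stem (SC), transit amplifying (TA), goblet (GC), enteroendocrine (EE) and Paneth (PC) cells, enterocytes (EC), enterocyte progenitors (EP), and the classes RSC and TC, whose letters the sources used here do not spell out. Enterocytes served as background, since 1 of 1325 of them held a Pou2f3 UMI (0.0755%) at a median depth of 36200 UMIs. Few of them came from Hyper-organoids, where 0 of 86 held one, which allows a share of up to 3.49%. In ENR-, -VE- and Hyper-organoids the shares were 2.30%, 0.932% and 5.69% of SC cells (median depths 36866, 37678 and 37634 UMIs), 2.06%, 1.16% and 5.79% of TA cells (51352, 49296 and 51686) and 10.8%, 9.06% and 15.8% of GC cells (29303, 32158 and 33324).

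With libraries pooled, GC cells held the largest share of Pou2f3 UMIs of any class in ENR- and -VE-organoids, and TA and SC cells the larger shares in Hyper-organoids. ENR libraries differed, with 9, 47 and 22 UMIs in GC cells and 29, 21 and 13 in TA cells. Of the Pou2f3 UMIs, GC, TA and SC cells held 40.4%, 32.6% and 10.4% with ENR, 63.03%, 26.5% and 8.06% with -VE, and 19.2%, 41.4% and 37.5% with Hyper medium. SC cells made up 9.75% to 14.7% of the ENR and 40.0% to 44.1% of the Hyper cells. Within SC cells the level was 0.620, 0.649 and 0.524 CPM with ENR, 0.161 and 0.320 with -VE, and 2.01, 1.39 and 1.30 with Hyper medium. Within TA cells it was 0.625, 0.375 and 0.392 CPM, then 0.202 and 0.412, then 1.57, 0.943 and 0.983, in the same order of groups. In both classes every Hyper library lay above every other library.

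Fitted on the cells labelled SC alone, Pou2f3 rose by a log2 difference of 1.26 against ENR-organoids (SE 0.35, edgeR adjusted p = 0.0153) and by 2.55 against -VE-organoids (SE 0.39, edgeR adjusted p = 0.000845), where 15.2% and 14.7% of genes were called higher. On the cells labelled TA alone the rises were 1.22 (SE 0.36, edgeR adjusted p = 0.0178) and 1.78 (SE 0.41, edgeR adjusted p = 0.00692), where 17.2% and 15.5% were called higher. On GC cells alone no difference was called, at -0.039 (SE 0.44) against ENR-organoids and -0.25 (SE 0.44) against -VE-organoids, where 13.3% and 9.87% of genes were called in either direction. GC cells held 2.56, 9.21 and 6.41 CPM with ENR, 11.02 and 4.63 with -VE and 8.52, 4.40 and 6.76 with Hyper medium, and the groups overlapped. Of the 323 Pou2f3 UMIs in GC cells, 114 lay in 25 cells with at least 3 members, described below. In the other GC cells the level was 2.56, 7.56 and 3.58 CPM with ENR, 3.49 and 2.82 with -VE, and 7.41, 3.98 and 4.68 with Hyper medium, where every Hyper library lay above both -VE libraries, after a removal that lowers Pou2f3 by construction. These fits per class were added after the data were seen, and the difference between classes was not tested. Classes are the authors' and were drawn from the same expression values. The authors joined several clusters in a class, and they describe the SC and TA cells of Hyper-organoids as lying in other clusters than those of ENR-organoids. The annotation used here gives the class of a cell and not its cluster, so a change within the same kind of cell and a different kind of cell under the same label cannot be told apart.

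Avil, Trpm5 and Dclk1 had other carriers. GC cells held 51.0% of all organoid Avil UMIs and 49.7% of the Trpm5 UMIs, of which the 25 GC cells with at least 3 members gave 149 of 211 and 122 of 160. Class TC, with 17 cells, held 59.1% of the Dclk1 UMIs and 32.1% of those of Alox5ap. In Hyper-organoids, where no TC cell was kept, 21 of 30 Dclk1 UMIs lay in EE cells, with 1, 8 and 12 in the 3 libraries, and 74 of 81 Alox5ap UMIs lay in SC and TA cells. These classes were also most of the Hyper cells, SC 40.0% to 44.1% and TA 42.4% to 50.0% per library. On GC cells alone the Avil difference was -2.19 against -VE-organoids (SE 0.67, edgeR adjusted p = 0.0378) and -1.71 against ENR-organoids (SE 0.70, edgeR adjusted p = 0.0844). In GC cells other than those 25, Avil stood at 1.71, 0.995 and 1.19 CPM with ENR, 2.28 and 1.37 with -VE, and 0.659, 0.159 and 2.13 with Hyper medium. The groups then overlapped, after a removal that lowers Avil by construction.

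**Figure D2:**
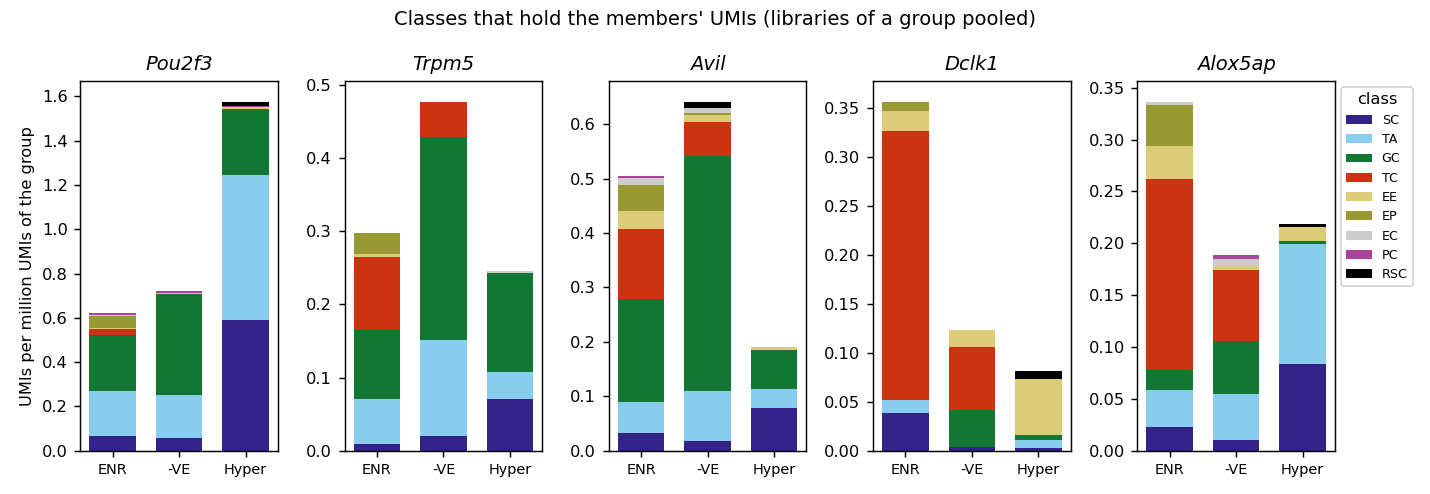
Level of 5 members in CPM of the group (vertical axis, libraries pooled, no error), stacked by the class of cells that held them: stem (SC), transit amplifying (TA), goblet (GC), enteroendocrine (EE), Paneth (PC) cells, enterocytes (EC), their progenitors (EP), and classes TC and RSC. Hyper-organoids hold most Pou2f3 in SC and TA cells (37.5% and 41.4%) and have no TC part.

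Class TC held tuft markers in 16 of its 17 cells. It was 17 of 22139 organoid cells (0.0768%), and 15 of them held UMIs of at least 3 of the 7 members. Dclk1 was found in 16 of the 17 cells (104 UMIs), Trpm5 and Avil in 14 each (45 and 58 UMIs), Alox5ap in 12 (77 UMIs), Pou2f3 in 7 (10 UMIs), Gfi1b in 3 and Il25 in 2. Among the genes that led the class by fold over all other organoid cells were Cd300lf, Alox5, Ly6g6f, Rac2, Dclk1, Sh2d6, Siglecf, Sh2d7 and Alox5ap, as a description, since the class was drawn from these values. The exception was 1 cell of -VE-organoids 1 with 23545 UMIs and none of the members, which held 130 UMIs of Agr2 and 102 of Tff3, both goblet products. In the other 16 cells markers of neurons and glia, stroma, enteroendocrine cells and megakaryocytes were at 0, and leukocyte markers gave 3 UMIs in 2 cells. Markers of enterocytes gave 45 UMIs in 10 cells, of stem cells 12 in 7, of Paneth cells 11 in 8, and of goblet and mast cells 6 each, in 3 and 4 cells. TC cells were shallow, with a median of 3328 UMIs, and only 3 of the 17 had the 1500 genes that the methods state as a minimum.

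Hyper-organoids had no TC cell. With ENR there were 1, 7 and 5 such cells, 0.0457%, 0.269% and 0.213% of the kept cells, and with -VE medium 4 and 0, 0.167% and 0%. The Hyper libraries held 0 of 2812, 0 of 3523 and 0 of 1983 cells, which allows shares of up to 0.107%, 0.0852% and 0.151% (3 cells as the limit, while the exact 95% intervals plotted for them reach 0.131%, 0.105% and 0.186%), and the 0 of 4293 cells in -VE-organoids 2 allows 0.0699%. The share of ENR-organoids 1 lay below all of these limits. Hyper- and ENR-organoids differed by -0.176 percentage points without overlap (exact two-sided permutation test, p = 0.1, the smallest that 3 against 3 libraries allow, adjusted p = 0.3). The other 2 pairs gave p = 0.4 each by the same exact test. Among cells with at least 1500 genes, TC cells numbered 0, 1 and 0 with ENR and 2 and 0 with -VE medium, and Hyper- and ENR-organoids then overlapped (-0.0131 percentage points, exact p = 1.0). No library held the 10 TC cells set as the minimum for a test within the class.

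Cells with UMIs of at least 3 members were more numerous than TC cells and lay in other classes too. There were 47 in the organoids, 1, 9 and 11 with ENR, 12 and 8 with -VE, and 1, 4 and 1 with Hyper medium. Their shares of kept cells averaged 0.287% ± 0.218 (SD, n = 3), 0.344% ± 0.223 (n = 2) and 0.0665% ± 0.0414 (n = 3). Hyper- and -VE-organoids did not overlap (exact two-sided permutation test, p = 0.1, the smallest this design allows, adjusted p = 0.3), while Hyper- and ENR-organoids did, through ENR-organoids 1 (exact p = 0.3). Within the culture series the Hyper library had the lower share in 3 of 3, at 0.0356% against 0.0457%, 0.114% against 0.346% and 0.0504% against 0.468%. The -VE- and ENR-organoids gave an exact p of 0.9. The separation depended on the number of members asked for. With at least 2 members the means were 0.408% with ENR, 0.444% with -VE and 0.376% with Hyper medium, and the groups overlapped (exact p = 0.9 for Hyper against ENR and 0.6 for Hyper against -VE). With each cell thinned to 10000 UMIs the group means were 0.0735%, 0.205% and 0.0178%, in that order of ENR, -VE and Hyper. Hyper- and ENR-organoids overlapped (exact p = 0.7), and Hyper- and -VE-organoids did not (exact p = 0.1, adjusted p = 0.3). The Hyper mean came from 1 cell, in Hyper-organoids 3. This thinning left out 63 to 280 shallower cells per library, 16 of the 17 TC cells among them. Thinned to 1500 UMIs, which was added after the data were seen and keeps more TC cells, the means were 0.112% with ENR, 0.0960% with -VE and 0 with Hyper medium. Hyper-organoids overlapped with neither group (exact p = 0.1 each, adjusted p = 0.15). The lowest ENR (0.0467%) and -VE (0.0234%) shares were 1 cell each, beside 0 of 2796, 0 of 3513 and 0 of 1966 Hyper cells. Thinned to 5000 UMIs, the shares were 0%, 0.0393% and 0.0441% with ENR, 0.129% and 0.0725% with -VE, and 0%, 0.0287% and 0% with Hyper medium. Hyper- and ENR-organoids then overlapped. Each thinning was 1 random draw. With at least 4 members Hyper- and -VE-organoids did not overlap (exact p = 0.1), and Hyper- and ENR-organoids did (exact p = 0.4).

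**Figure D3:**
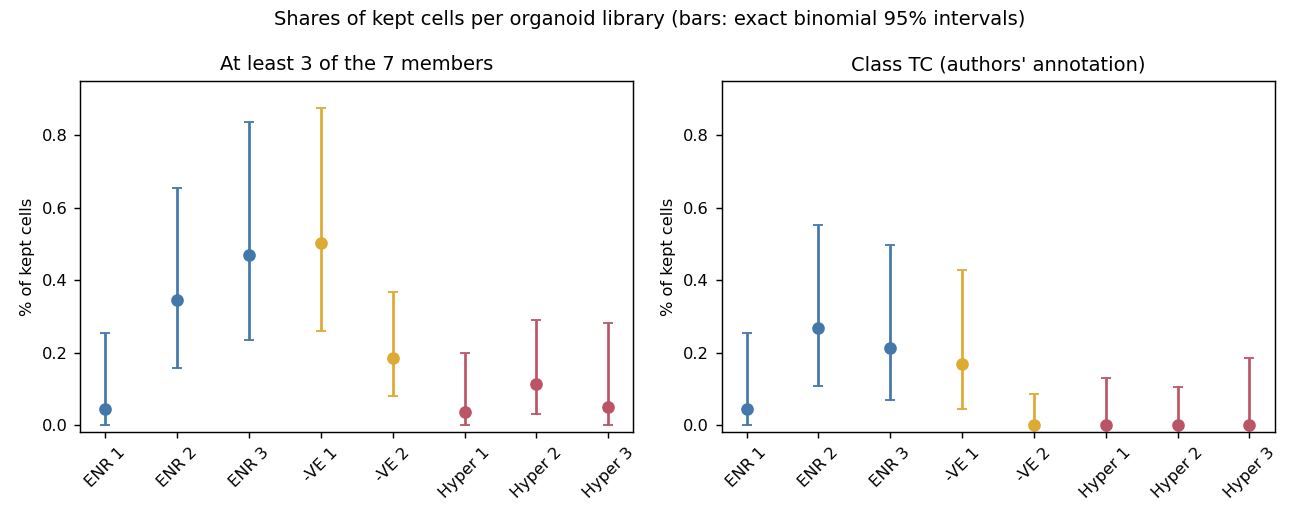
Percent of kept cells (vertical axis) in each organoid library that hold UMIs of at least 3 of the 7 members (left) and that belong to class TC (right). Bars are exact 95% binomial intervals and cover counting error only; the Hyper libraries sit at 0.0356% to 0.114% on the left and at 0 on the right.

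Of these 47 cells, 25 were GC cells, 15 were TC, 3 SC, 3 TA and 1 EE. The 25 were 25 of 1425 GC cells, found as 0, 3 and 4 with ENR, 9 and 5 with -VE and 1, 2 and 1 with Hyper medium. Both kinds of cell held Trpm5 and Avil, in 24 and 24 of the 25 GC cells and in 13 and 14 of the 15 TC cells. Pou2f3 was found in all 25 GC cells (114 UMIs) and in 7 of the 15 TC cells (10 UMIs), at 187 and 193 CPM. Dclk1 was found in 3 of the 25 GC cells and in all 15 TC cells. The members are what chose these cells, so the counts are a description.

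Several companion genes, which played no part in the choice, were found more often in the 25 GC cells than in the other 1400 GC cells. In the 25 GC cells Ltc4s, the leukotriene C4 synthase, was found in 24, Hpgds, a prostaglandin D synthase, in 22, the taste-type G protein subunit Gng13 in 20, Lrmp in 18 and Rgs13, a regulator of G protein signalling, in 13. The same genes were found in 80, 23, 39, 8 and 3 of the other 1400 GC cells. Other companions were not found more often. Itpr3 was found in 11 of the 25 against 724 of the 1400, Nrgn in 2 against 229 and Strip2 in 0 against 12. Of the 37 companions, 5 were found in none of the 25, Gnb3 and Inpp5d among them, and Gnat3 was found in 1. Of the 4 goblet genes, Muc2, the secreted mucin, was found in 3 of 25 against 928 of 1400, Agr2 in 11 against 1375, Fcgbp in 17 against 1364 and Tff3 in 23 against 1394. Atoh1, the secretory lineage factor, which is on the companion list, was found in 3 against 944. Of the 4 stem cell genes, Ascl2 was found in 21 of 25 against 312 of 1400, Cd44 in 20 against 718, Olfm4 in 14 against 761 and Lgr5 in 9 against 876.

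The companions of the 15 TC cells overlapped with these, with Lrmp in 13, Rgs13 in 12 and Gng13 in 8. The adaptor Sh2d6 was found in all 15, Ltc4s in 14 and Alox5 (5-lipoxygenase) in 13, while the 25 GC cells held them in 11, 24 and 1. The phospholipase Plcb2 of the taste-type cascade and Siglecf were found in 7 and 8 TC cells and in none of the 25 GC cells. Hpgds was found in 3 TC cells. Over the 37 companions, 23 were present in at least 50% of the TC cells, 7 in at least 50% of the 25 GC cells and 4 in at least 50% of the other GC cells, with medians of 21, 10 and 4 per cell. Depth differed the opposite way, at a median of 3328 UMIs in the 15 TC cells (1550 to 8596) and 23898 in the 25 GC cells (10509 to 43855). The median of the 25 lay below that of the other GC cells, 32102 UMIs. No doublet caller was run, and the part of doublets was not tested.

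**Figure D4:**
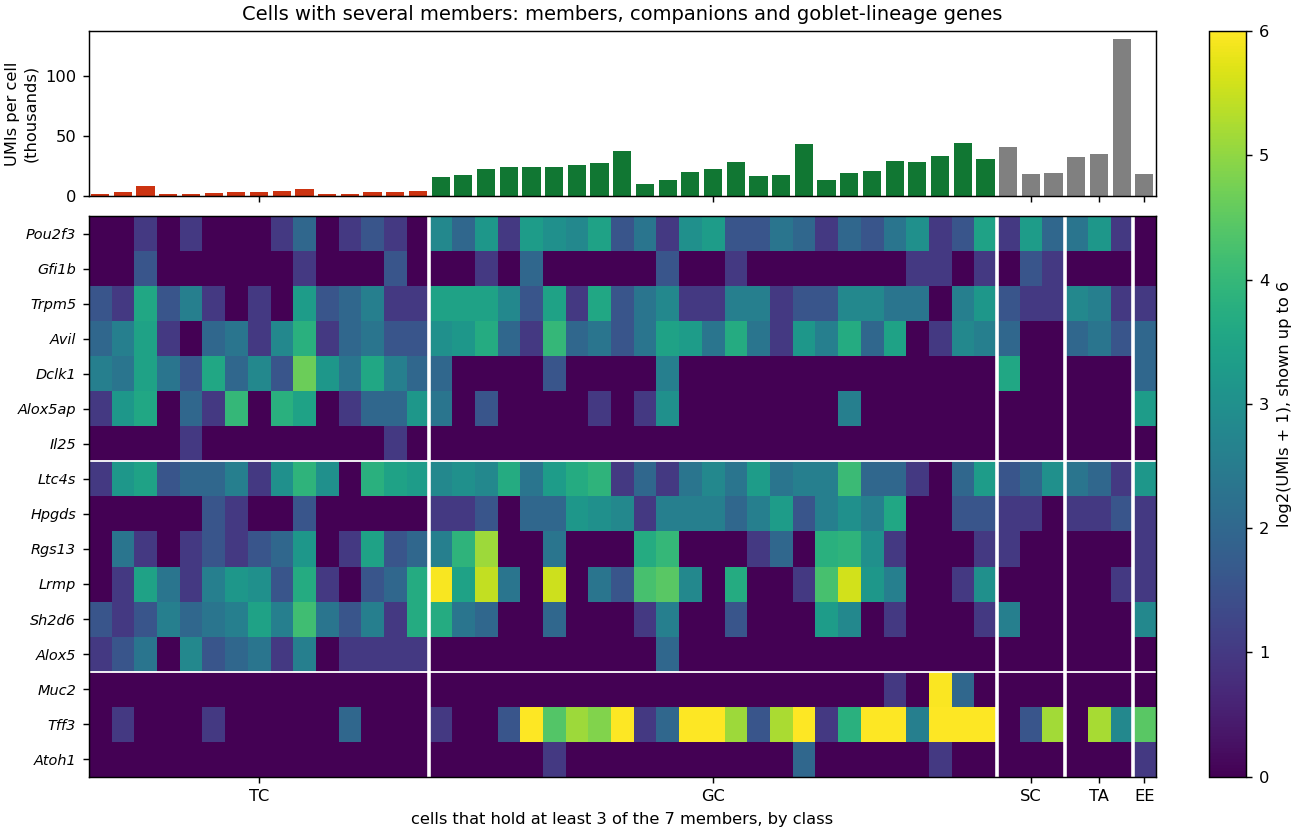
The 47 organoid cells with at least 3 members (columns, by class), with the UMIs of each cell above and log2(UMIs + 1) of the 7 members, 6 companion genes and 3 goblet-lineage genes below (colour, shown up to 6). Trpm5, Avil, Ltc4s and Lrmp are found in most TC and GC cells, while Dclk1 and Alox5 are found in 15 and 13 of 15 TC cells and 3 and 1 of 25 GC cells, and Hpgds in 3 and 22.

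Since the 47 cells were chosen by the members' own UMIs, leaving them out lowers the members by construction, and more so where such cells were more numerous, so the values without them are a description. Without the 47 cells, Avil was lower in Hyper-organoids by log2 differences of -0.55 against ENR- (edgeR adjusted p = 0.124) and -0.63 against -VE-organoids (edgeR adjusted p = 0.117), neither called, where 22.9% and 18.6% of genes were. Pou2f3 was higher without them, by 1.36 (SE 0.26, edgeR adjusted p = 0.00253) and 1.69 (SE 0.30, edgeR adjusted p = 0.00270), where 18.2% and 16.2% of genes were called higher. Trpm5 then stood at 0.75 against ENR- (edgeR adjusted p = 0.208) and 0.61 against -VE-organoids (edgeR adjusted p = 0.358), neither called and both opposite in sign to the values with the cells.

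Of the 37 tuft companions, listed from general knowledge, 29 passed the filter. Against ENR-organoids, 3 were called higher and 6 lower in Hyper-organoids, where 18.2% and 4.75% of all genes were, with a median log2 difference of -0.60, beside -0.0073 over all genes. The 5 with the largest fitted differences were Sh2d7, Nrgn, Ly6g6f, Sh2d6 and Rgs13. Sh2d7, an adaptor gene, had 30 UMIs in ENR-organoids, 36 in -VE-organoids and 0 in all 3 Hyper libraries, at least 12.0-fold lower against ENR- and at least 15.3-fold lower against -VE-organoids, taking 3 UMIs over the Hyper group as the limit. These are values of pooled groups, since ENR-organoids 1 also had no Sh2d7, beside 0.117 and 0.191 CPM in the other 2 ENR libraries. The -VE libraries differed too, at 0.222 and 0.0609 CPM. Rgs13 in ENR-organoids 1 (0.0104 CPM) lay within the Hyper range of 0 to 0.0316 CPM. Ly6g6f, Sh2d6 and Rgs13 fell by log2 differences of -4.91, -4.57 and -4.38 (edgeR adjusted p = 0.0125, 0.00466 and 0.0244). Of the Sh2d7 UMIs, 25 lay in the 15 TC cells and 37 in the 25 GC cells with at least 3 members. The same cells held, in that order, 63 and 8 UMIs of Ly6g6f, 78 and 47 of Sh2d6, and 38 and 124 of Rgs13. For Lrmp, given below, they held 68 and 313. The part of these few cells in the falls was not tested. Nrgn (neurogranin, known from neurons) rose by 5.59 (SE 0.18, edgeR adjusted p = 5.70e-07), from 0.807, 0.935 and 0.931 CPM to 48.8, 40.1 and 40.3 CPM. The other 2 called higher were Ptgs1 (cyclooxygenase) at 2.97 and Kctd12 at 1.72, and Lrmp was lower at -4.03, all named here after their values were seen.

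Against -VE-organoids, 3 companions were called higher and 8 lower, where 16.1% and 2.51% of all genes were, with a median of -0.60 beside 0.014 over all genes. Sh2d7, Lrmp (-4.79), Rgs13 (-4.64), Nrgn (4.49) and Ly6g6f (-4.47) had the largest differences. In -VE- against ENR-organoids only Nrgn was called, at 1.10 (SE 0.19, edgeR adjusted p = 0.0149). That is 1 of the 29 tested, where 2.55% of all genes were called. The median over the 29 was 0.15, beside 0.0041 over all genes. Markers of some other differentiated cells were called lower in Hyper- against ENR-organoids as well. They were 4 of 4 enterocyte markers (median -3.03), 2 of 4 goblet markers (median -1.003) and 2 of 4 Paneth markers (median -1.13, and 1 higher). Of the 6 enteroendocrine markers, 1 was called higher and 1 lower (median 0.079). The part of these cells in the companions' levels was not tested. Markers of neurons and glia moved with Nrgn, since 4 of the 6 tested were called higher in Hyper-organoids in each comparison, with medians of 2.54 and 3.17, and their part in its level was not tested. Of the 8 genes of the tuft circuit, cytokines and receptors around the tuft cell, 5 were tested, and Tslp and Il33, epithelial cytokines that act on innate lymphoid cells, rose by 3.77 and 3.93 against ENR- and by 3.13 and 2.81 against -VE-organoids (log2 differences, edgeR adjusted p at most 0.00459). The median of the 5 was 0.76 and 0.43.

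The summed level of the members was highest in GC cells of all 8 libraries among classes with at least 20 cells, and the genes most like it are given for comparison. Part of that level lay in the 25 GC cells with at least 3 members. In -VE-organoids 1 the summed level of GC cells was 32.8 CPM with them and 5.77 CPM without them, and in ENR-organoids 3 it was 23.02 and 4.78 CPM. With the cells of at least 3 members left out of every class, a choice added after the data were seen, GC cells were still highest in 8 of 8 libraries, though in ENR-organoids 1, where GC held no such cell, they stood at 4.83 CPM beside 4.66 CPM in EE cells. Over 50 units of class and library with at least 20 cells, the 10 genes with the highest Pearson r of log2(CPM + 1) were Tpd52 (0.847), Txndc5, Calr, Dnajc10, Rab15, Ampd3, Tmem123, Bace2, Impad1 and Litaf (0.817), none of them a listed companion. Units of 1 library share depth, and class TC never reached 20 cells in a library. With units of at least 4 cells, a choice added after the data were seen, the list shared 0 of 10 genes with this one and opened with Rgs13 (0.924), Lrmp and Sh2d6.

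In the colonic crypts there was 1 library per group, so no test was made, and exact Poisson intervals cover counting error only. They also take UMIs as independent, while several UMIs of a member often lay in the same cell. In plain CPM of kept cells, Trpm5 was lower in the DSS library, at 0.617 CPM (20 UMIs) against 2.21 CPM (44 UMIs), a ratio of 0.279 (95% interval 0.156 to 0.484). Dclk1 was lower too, at 0.957 CPM (31 UMIs) against 2.56 CPM (51 UMIs), a ratio of 0.373 (0.231 to 0.595). These UMIs lay in few cells, 8 DSS and 13 normal for Trpm5 and 13 and 14 for Dclk1, where 1 normal cell held 20. Trpm5 was found in 0.414% of DSS cells (exact 95% interval 0.179% to 0.814%) and 1.15% of normal cells (0.613% to 1.96%). Dclk1 was found in 0.673% (0.359% to 1.15%) and 1.24% (0.678% to 2.07%). For both genes the intervals of these shares overlapped. Avil stood at 1.51 CPM in both libraries, from 49 and 30 UMIs, a ratio of 1.00 (0.625 to 1.64). Alox5ap was higher, at 40.1 CPM (1298 UMIs) against 4.97 CPM (99 UMIs), a ratio of 8.06 (6.56 to 9.99). Of these 4 members, 3 lay past 2-fold, 1 higher and 2 lower, where 9.38% of 13617 genes did, 6.70% higher and 2.68% lower. Pou2f3 (7 and 4 UMIs), Gfi1b (5 and 2) and Il25 (3 and 4) were too sparse for a fold.

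Alox5ap lay mostly in leukocyte clusters of the DSS library. The authors' cluster 15, with 66 cells all from DSS, held 979 of the 1298 UMIs (75.4%), and 68.2% of its cells held Ptprc, the pan-leukocyte phosphatase. Leukocyte markers made up 62381 UMIs in that cluster against 152 for epithelial markers. Cluster 21 held another 154 UMIs. Clusters in which over 50% of cells held Ptprc made up 445 of 1933 DSS and 219 of 1132 normal cells, and held 88.1% of the DSS and 16.2% of the normal Alox5ap UMIs. Without those clusters and other Ptprc cells Alox5ap stood at 3.15 CPM in DSS and 3.51 CPM in normal crypts, a ratio of 0.898 (0.649 to 1.25). Outside those clusters, clusters 16, 22 and 23 held 24, 43 and 39 of the DSS UMIs. Clusters 16 and 23 held 19 and 29 of the normal ones, and cluster 24 held 19 (DSS) and 29 (normal). Ptprc was found in 8.47%, 4.76% and 15.4% of the cells of clusters 16, 22 and 23. Their cell types were not determined, so the ratio is not one of tuft cells or of epithelium alone. For Trpm5 and Dclk1 the ratios without them were 0.357 (0.185 to 0.669) and 0.275 (0.146 to 0.498). Those clusters held no Trpm5 UMI, and leaving out Ptprc cells also took 4 of the 13 cells of cluster 24, described next.

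The authors' cluster 24, which they labelled other, was tuft-like by the markers. It held 4 of 1132 normal cells (0.353%, exact 95% interval 0.0964% to 0.902%) and 9 of 1933 DSS cells (0.466%, 0.213% to 0.882%), and the intervals overlapped. Of its 13 cells, 9 held at least 3 members, 3 in the normal and 6 in the DSS library. Its leading genes by fold were 1810046K07Rik, Ly6g6f, Rgs13, Hamp2, Gng13, Sh2d6, Dclk1, Ltc4s, Trpm5 and Matk, as a description, since the cluster was drawn from these values. Its cells were shallow, with medians of 4144 (normal) and 2891 (DSS) UMIs. Leukocyte markers gave 8 UMIs in 4 of the 13 cells. Goblet markers gave 38 UMIs in 10 cells, and markers of mast cells 18 in 8, all of them Kit. Markers of enterocytes gave 14 UMIs in 5 cells, of stem cells 12 in 4 and of enteroendocrine cells 1 in 1. Those of Paneth cells, neurons and glia, stroma and megakaryocytes were at 0.

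Trpm5 spread differently over the clusters of the 2 libraries. In the DSS library 19 of 20 Trpm5 UMIs lay in cluster 24, and in the normal library 11 of 44 did, while 20 lay in cluster 2, which the authors call stem, 6 in cluster 1 and 5 in cluster 6. Dclk1 had 20 of 31 and 29 of 51 UMIs in cluster 24. Of the 9 normal cells with at least 3 members (0.795%, exact 95% interval 0.364% to 1.504%), 4 lay in cluster 2, 3 in cluster 24 and 1 each in clusters 1 and 6. Of the 8 such DSS cells (0.414%, 0.179% to 0.814%), 6 lay in cluster 24 and 1 each in clusters 4 and 23. With each cell thinned to 1500 UMIs the order of the libraries stayed, at 3 of 1100 normal cells (0.273%) and 2 of 1830 DSS cells (0.109%), with 32 and 103 shallower cells left out. Thinned to 5000 UMIs it turned, at 1 of 775 normal cells (0.129%) and 3 of 1259 DSS cells (0.238%), with 357 and 674 cells left out, and the median depth of cluster 24 (4144 and 2891 UMIs) lay below that cut. No order of the libraries is read from these counts.

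In the colon the summed members were highest in cluster 15 of the DSS library, through Alox5ap. Over 30 units of cluster and library with at least 20 cells, the summed members were most like Il1r2 (0.923), Pirb, Cd300lf, Nfam1, Clec4e, Ifitm6, Cfp, Pilra, Cd33 and Spi1 (0.892). Several of these, such as Pirb, Clec4e and Spi1, are known from myeloid cells, and Alox5ap, itself in the sum, reached 0.928.

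**Figure D5:**
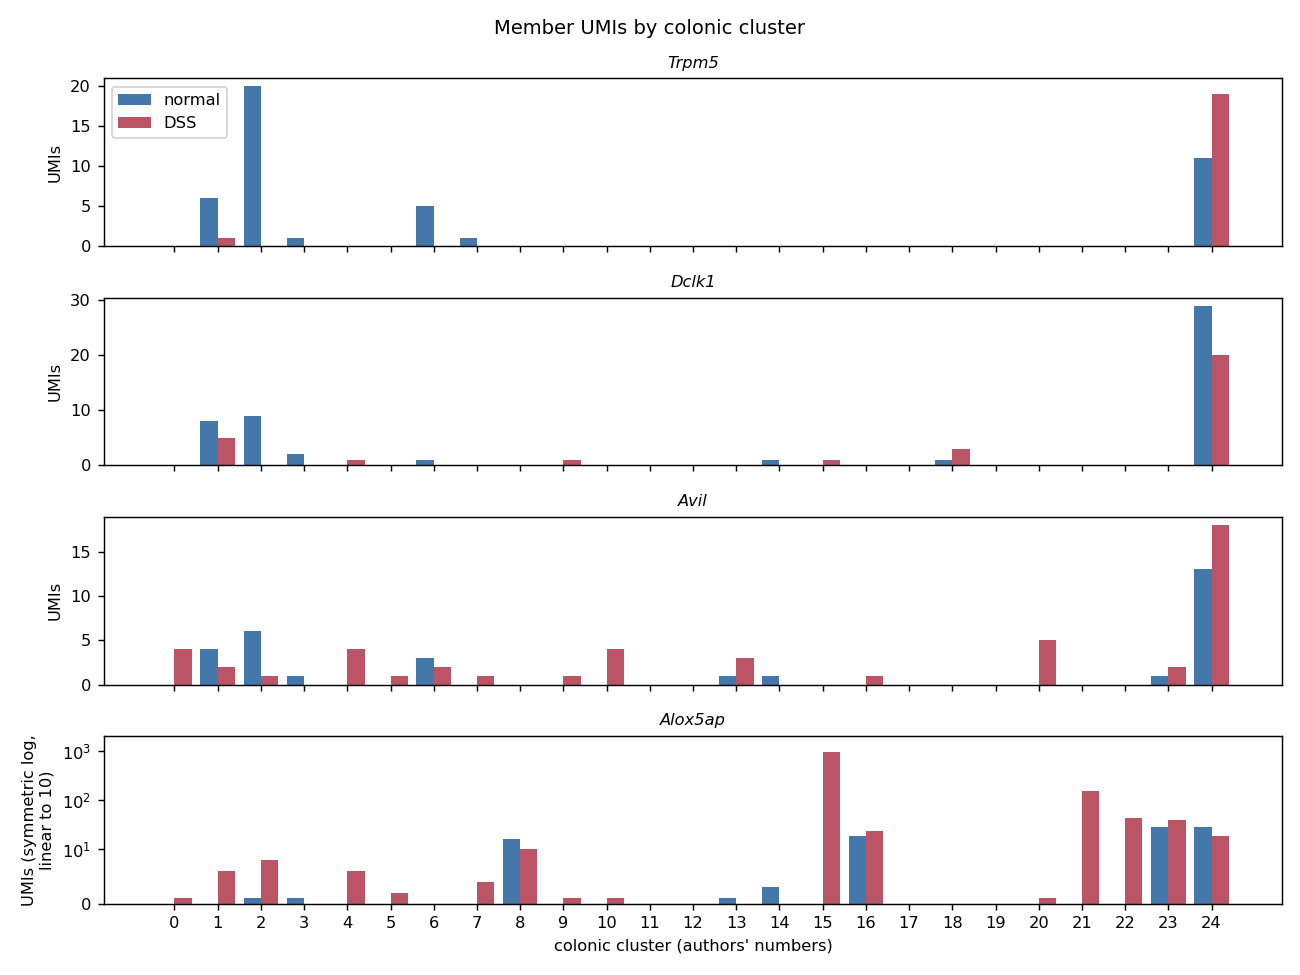
UMIs of Trpm5, Dclk1, Avil and Alox5ap (vertical axes; Alox5ap on a symmetric log axis, linear to 10) in each of the authors' colonic clusters (horizontal axis), for the normal library and the DSS library. Trpm5 lies in cluster 24 in DSS (19 of 20 UMIs) and also in cluster 2 in normal crypts (20 of 44), and Alox5ap lies in cluster 15 of the DSS library (979 UMIs).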

How the data were processed

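The members and all gene lists were chosen with earlier results of these data known. The deposited values are UMI counts per gene and barcode, not normalized, which the authors made with Cell Ranger (3.0.0 per the labels, another version per the file headers) on mm10. Cells and classes are those the authors kept and deposited (Seurat 3.1.4). Counts were summed per library over kept cells and tested across the 8 organoid libraries in 1 model by edgeR 4.0.16 under R 4.3.3 (TMM, filterByExpr, glmQLFit and glmQLFTest), with DESeq2 1.42.0 as an alternative. The fit was tested on simulated data. Shares of cells were compared by exact permutation tests over libraries, adjusted over 3 pairs. Colonic values have exact Poisson or Clopper-Pearson 95% intervals, and floors are 3 counts. Named genes were all members, at most 5 called genes per list and comparison, and the 10 most alike genes. Deviations of ENR and Hyper libraries with the same series code correlated at r = 0.192, 0.170 and 0.436, and those of -VE and ENR at 0.161 and 0.0617. Of unmatched pairs, Hyper-organoids 1 with ENR-organoids 2 gave 0.129 and Hyper-organoids 2 with ENR-organoids 1 gave 0.0619. The other unmatched ENR and Hyper pairs were negative. The labels state no shared culture, so the pairing is inferred. Neither the main fit nor the permutation tests used it. Alternatives covered normalization, filters, cell sets, thinning, the replicate block and leaving out each library. Columns without a sample numbered 0. Some items are not reported here.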

Additional observations from a re-analysis of the deposited data

Results flagged for a closer look

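The log2 differences of Trpm5 and Alox5ap differed in sign between culture series, and neither gene was called. With 1 library of each group per series, the difference between series was not tested. For Trpm5, exact Poisson intervals (counting error only) of Hyper- and ENR-organoids overlapped in all 3 series. For Alox5ap they overlapped in series 2 and C and lay apart in series 6. In series 2 the ENR and Hyper libraries had 15 and 28 UMIs of Trpm5 and 8 and 25 of Alox5ap. The log2 difference of Hyper- against ENR-organoids in Trpm5 was 0.29 in series 2, -0.33 in series 6 and -0.89 in series C. In Alox5ap it was 1.03 in series 2, -1.80 in series 6 and -0.30 in series C. In both genes the ENR library of series 2 had the lowest ENR level. Avil, by comparison, was lower in Hyper-organoids in all 3 series (-0.83, -1.65 and -1.76), as was Dclk1 (-3.78, -2.60 and -1.59, from 1, 11 and 18 Hyper UMIs and not called), and Pou2f3 was higher in all 3 (1.77, 0.69 and 1.11).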

How the results depend on the processing

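The culture series as a replicate block changed no member call: 2, 1 and 0 members were called (Hyper against ENR, Hyper against -VE, -VE against ENR), and 3780, 3063 and 439 genes. Leaving out libraries gave 1 to 2, 1 to 2 and 0 members called and 3384 to 3806, 2218 to 2977 and 96 to 519 genes, the lowest without -VE-organoids 2, with 252, 151 and 232 without each ENR library. Members called against ENR were 0 in GC cells and 1 in SC cells, in TA cells or without the cells of at least 3 members. Against -VE they were 2 with all barcodes, in TA cells or without those cells. Calls without those cells are a description, since the members' own UMIs chose them. Of all genes, 13.3% were called against ENR in GC cells and 22.9% without those cells, in either direction. In SC and TA cells 15.2% and 17.2% were called higher against ENR. Against -VE 18.6% were called without those cells, and 15.5% were called higher in TA cells. For all barcodes that share is not given here, so the 2 members called there are not judged against it. Genes called were 800, 528 and 166 at 10 CPM, where no member was tested, and 1563, 1156 and 133 in GC cells. In -VE against ENR they were 70 (SC), 150 (TA) and 669 (all barcodes).

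Signs reversed, with none called, as follows, and the cause was not tested. For Pou2f3 they were -0.039 and -0.25 in GC cells (Hyper against ENR and -VE), and -0.33 without the cells of at least 3 members, -1.29 (SC) and -0.56 (TA) for -VE against ENR. For Avil they were 1.34 in SC cells (Hyper against -VE), -2.03 in SC cells and -0.013 without -VE-organoids 1 (-VE against ENR, with left-out libraries ranging up to 0.71). For Trpm5 they were 0.75 and 0.61 without those cells (Hyper against ENR and -VE), and 0.17 without TC and 0.13 in GC cells against ENR. For Dclk1 they were 0.40 without TC and 1.18 without -VE-organoids 1 (Hyper against -VE, with left-out libraries ranging down to -1.78). For Alox5ap against -VE they were -0.027 without the deepest 5% of cells, -0.33 with the block, -0.54 without -VE-organoids 2 and -0.43 without Hyper-organoids 3, and against ENR 0.21 from 1500 genes per cell, 0.45 without TC, 1.01 without the cells of at least 3 members, 0.062 (SC) and 1.37 (TA).

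Trpm5 against -VE passed the test with all barcodes (-1.31), without ENR-organoids 1 (-1.18), without -VE-organoids 2 (-1.65) and in TA cells (-1.69). Pou2f3 did so without -VE-organoids 1 (1.10), Hyper-organoids 2 (1.09) or Hyper-organoids 3 (1.02). Dclk1 against ENR did so with all barcodes (-2.36). Alox5ap against -VE did so without the cells of at least 3 members (1.58). That removal lowers the members by construction, more so where such cells were more numerous, so this value is a description.

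The share of cells with at least 3 members ranged over left-out libraries from -0.341 to -0.129 percentage points (Hyper against ENR), -0.436 to -0.1198 (Hyper against -VE) and -0.100 to 0.215 (-VE against ENR, also -0.0630 without ENR-organoids 1 and -0.0156 thinned to 1500 UMIs). The TC share ranged from -0.241 to -0.129, -0.167 to 0 and -0.176 to -0.00856, and for -VE against ENR was 0.0297 from 1500 genes. In the colon without Ptprc clusters and cells, CPM was 0.0335 for Pou2f3 (DSS), 0 and 0.0335 for Gfi1b (normal, DSS), 1.60 for Trpm5 (normal), 0.570 for Dclk1 (DSS), 0.957 and 1.11 for Avil, and 3.51 and 3.15 for Alox5ap. With all barcodes it was 5.75 and 1.64 for Trpm5, 4.88 and 1.89 for Dclk1, and 29.6 for Alox5ap (DSS). Thinned to 5000 UMIs, 0.129% of normal and 0.238% of DSS cells held at least 3 members. Of the 10 most alike genes, 0 (organoid) and 3 (colon) remained with units of at least 4 cells. With 0 to 6 UMIs per library, depth allowed no comparison for Gfi1b and Il25.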

Other observations

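Barcodes that the authors did not keep also held UMIs of several members. In the normal colonic library 25 of 2495 such barcodes (1.00%) held UMIs of at least 3 members, all 25 Trpm5 and all 25 Dclk1, beside 9 among the 1132 kept cells. In the DSS library they were 11 of 2813 (0.391%), beside 8 among the 1933 kept cells. All 25 normal and 9 of the 11 DSS barcodes had over 20% mitochondrial UMIs (medians 43.1% and 38.1%), and they held a median of 16 of the 37 companions in each library. Ptprc, a marker of leukocytes, had a UMI in 8 of the 25 normal and 3 of the 11 DSS barcodes, and its part in these counts was not tested.

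The barcodes left out held 77.8% of the Trpm5 UMIs of the normal library and 74.4% of those of the DSS library, against 42.2% and 31.9% of the UMIs of all genes. For Dclk1 the shares were 69.6% and 65.6%, for Avil 57.7% and 44.3%, and for Alox5ap 32.7% and 7.88%, below those of all genes. In the organoids such barcodes with at least 3 members numbered 1, 2 and 3 with ENR, 2 and 2 with -VE and 0, 0 and 0 with Hyper medium. Depth and quality of these barcodes were not matched to those of kept cells, and no test was made.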
